A study of Mus musculus with 4 samples.

Results

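The protamine and transition protein cluster of mouse chromosome 16 holds Prm1, Prm2, Prm3 and Tnp2 within 17 kb. DNA methylation across it was followed site by site in sperm. The cluster was taken as the stretch of chromosome 16 (mm9) whose CG sites run from 10786050 to 10802997, inside a region of 35 kb. The neighbouring 3 kb, with CG sites from 10783034 to 10785989, were taken as the Socs1 island, and all other DNA of the region, with CG sites from 10775094 to 10809943, as the rest. Of the 206 CG sites that the deposited tables list in the cluster, 66 were measured, which here means 3 or more reads in each of the 4 libraries (32.0%). In the island the number was 185 of 186 and in the rest 17 of 141. Over chromosomes 1 to 19, X and Y it was 3041857 of 21342492 (14.3%).

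The study prepared sperm of adult wild-type male C57BL/6 mice to map the histones that remain, and also compared DNA methylation between HRCS and swim-up sperm. It took HRCS from sperm of the caudal epididymis and vas deferens, and describes swim-up sperm as taken from medium of the caudal epididymis. The fractions may therefore differ in tissue as well. Swim-up sperm are selected for motility, and the study describes them as still holding some cells in which histones have not been exchanged for protamines. HRCS (histone replacement-completed sperm) are dense sperm heads pelleted through Percoll after mild sonication had removed the tails. Each fraction gave 2 libraries of targeted bisulfite sequencing (TGBS). Capture probes pull down chosen DNA, bisulfite turns unmethylated cytosine into uracil, and the level of a CG site is the percentage of its reads that stayed methylated. Depth was 78562921 and 71379227 calls for swim-up sperm against 89403347 and 78381101 for HRCS, a call being 1 read of 1 CG site. Nothing in the labels says that the replicates came from separate mice, so the p-values measure only the spread between these samples, which may be technical.

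Protamines are small, arginine-rich proteins that take the place of histones in the elongating spermatid and pack the sperm DNA tightly. Transition proteins act in between, while the histones are being removed and the protamines come in. In the mouse, Prm1, Prm2, Prm3 and Tnp2 lie side by side and are transcribed in round spermatids, whereas in most other cells they are silent. CG dinucleotides in mammalian DNA are methylated by default, and the main exceptions are dense clusters of CG called CpG islands, which often lie at the start of genes.

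The sequences of the genes show where a CG site can be methylated at all, and they differ sharply within the cluster. They are given for GRCm38.p6 from RefSeq, 5′ to 3′ on the strand of the gene, which is the minus strand for all 5 genes, with each CG dinucleotide in capitals. The first is the whole coding sequence of Prm1 from the start codon to the stop codon (GENCODE M21), because 16 of the 29 highly methylated sites of the cluster lie in it.

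Prm1 coding sequence: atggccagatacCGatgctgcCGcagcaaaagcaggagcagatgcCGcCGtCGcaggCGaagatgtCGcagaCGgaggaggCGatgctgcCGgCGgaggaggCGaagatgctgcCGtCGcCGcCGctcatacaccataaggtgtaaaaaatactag

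These 156 bases hold 16 CG dinucleotides, or 10.3 per 100 bases, and all 16 are the first 2 bases of an arginine codon of the form CGN. Prm1, the protamine common to mammalian sperm, uses 28 arginine codons among its 52 codons, stop codon included, of which the other 12 are AGA or AGG and hold no CG. Prm2, the second protamine of mouse sperm, which is made as a longer precursor, has 38 arginine codons among 108, but 25 of them are AGA or AGG, and its coding sequence holds 4.94 CG per 100 bases. Tnp2, a transition protein, holds 4.24 per 100 bases, with 8 of its 15 CG in arginine codons. Prm3, which encodes an acidic protein in spite of its name, has only 2 arginine codons among 102 and 3.59 CG per 100 bases. Socs1, an inhibitor of cytokine signalling that is not specific to the testis, has 12.4 CG per 100 coding bases. Prm1 and Socs1 were thus the genes of the region with CG-dense coding sequences.

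The 250 bases before the start of each gene are shown next, because they separate the members from Socs1.

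Prm1 upstream: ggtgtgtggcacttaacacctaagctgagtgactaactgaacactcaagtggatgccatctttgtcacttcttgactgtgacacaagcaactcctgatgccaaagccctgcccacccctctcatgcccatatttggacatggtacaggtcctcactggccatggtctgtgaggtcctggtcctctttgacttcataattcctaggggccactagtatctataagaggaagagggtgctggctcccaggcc

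Prm2 upstream: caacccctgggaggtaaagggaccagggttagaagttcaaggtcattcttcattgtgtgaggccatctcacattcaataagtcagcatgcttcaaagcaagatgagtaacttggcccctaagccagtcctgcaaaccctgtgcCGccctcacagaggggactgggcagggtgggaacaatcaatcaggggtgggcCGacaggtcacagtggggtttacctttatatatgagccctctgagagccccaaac

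Prm3 upstream: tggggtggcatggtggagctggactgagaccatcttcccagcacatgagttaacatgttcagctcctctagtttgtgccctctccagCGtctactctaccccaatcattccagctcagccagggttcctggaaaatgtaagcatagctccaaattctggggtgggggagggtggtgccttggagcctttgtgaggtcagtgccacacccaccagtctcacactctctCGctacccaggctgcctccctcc

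Tnp2 upstream: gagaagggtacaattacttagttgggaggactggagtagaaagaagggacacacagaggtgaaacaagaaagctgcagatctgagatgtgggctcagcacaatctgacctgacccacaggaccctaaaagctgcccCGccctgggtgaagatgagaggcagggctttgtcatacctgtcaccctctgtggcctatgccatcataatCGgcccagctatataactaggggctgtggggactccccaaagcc

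Socs1 upstream: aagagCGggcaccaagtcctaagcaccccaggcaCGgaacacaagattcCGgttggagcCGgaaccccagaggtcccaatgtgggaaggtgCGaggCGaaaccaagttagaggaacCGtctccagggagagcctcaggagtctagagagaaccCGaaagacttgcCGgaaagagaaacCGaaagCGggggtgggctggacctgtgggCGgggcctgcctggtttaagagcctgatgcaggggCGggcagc

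The Prm1 upstream sequence has 0 CG, as do 7.87% of 32851 mouse promoters in the RefSeq table used. Those of Prm2, Prm3 and Tnp2 have 2 CG each, and 29.0% of the promoters have 2 or fewer. The Socs1 upstream sequence has 13. At the protamine genes, therefore, the CG sites that can carry methylation lie mainly inside the transcribed part and not before it.

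The genes were placed on the files' own mm9 positions by the spacing of their CG dinucleotides. The gene sequence with 250 bases upstream matched the listed CG sites at exactly 1 place in the region and on the whole of chromosome 16 for Tnp2 (23 CG), Prm3 (15 CG), Prm2 (24 CG), Prm1 (23 CG) and Socs1 (165 CG). In this order of rising position, the CG sites of the transcribed parts ran from 10788168 to 10788748 in Tnp2, from 10790638 to 10790983 in Prm3, from 10791476 to 10792156 in Prm2 and from 10796483 to 10796875 in Prm1. Those of Socs1 ran from 10784013 to 10785614. Matching the gene sequences was chosen after the values had been seen, since the promoter window of Prm1 holds too few CG to be placed by itself.

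Methylation in the cluster was split into a nearly unmethylated edge beside Socs1 and a highly methylated interior. Of the 66 measured sites, 35 had a mean level of at most 25%, 29 had at least 75% and 2 lay between. The 37 sites of the first 1 kb (10786050 to 10786900) had mean levels of 4.91% and 3.14% in swim-up sperm against 4.62% and 5.08% in HRCS. The 29 sites beyond it had 92.8% and 95.5% in swim-up sperm against 96.2% and 96.4% in HRCS, and each of these 29 sites was at 87.5% or more. The mean over the cluster as defined, 43.5% and 43.7% in swim-up sperm against 44.9% and 45.2% in HRCS, therefore averages the end of the island with Prm1 and the stretch upstream of it, and holds no site of Prm2, Prm3 or Tnp2.

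**Figure D1:**
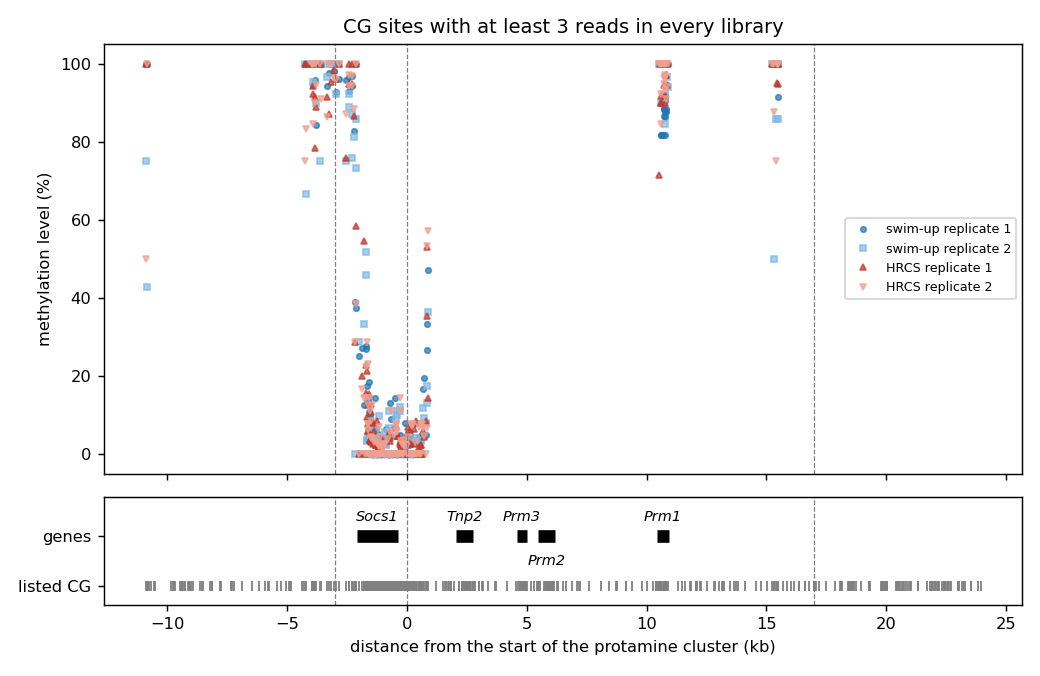
Methylation level (%) of every measured CG site against the distance from the start of the cluster in kb, 1 symbol per library. Dashed lines mark the edges of the island and the cluster, and the lower track shows the transcribed parts and all listed CG sites. Levels are low over Socs1 and the first 1 kb of the cluster and high at Prm1 and upstream of it, with no measured site between.

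Set against its neighbours, the cluster lay 37.4 percentage points above the Socs1 island within libraries (two-sided exact sign-flip permutation test over 4 libraries, p = 0.125, the smallest this design allows) and differed from the rest of the region by -49.4 points (p = 0.125 in the same exact test). Both values rested on where the edge was drawn and on how sites were chosen and weighted. With calls pooled over sites the difference from the island was 24.7 points, at 10 reads 26.4 and at 1 read 48.0. With the edges of the cluster moved inward by 1000 bp, the difference from the island was 88.3 points (exact p = 0.125), and that from the rest changed sign to 1.47 points above it (exact p = 0.5). The island itself had mean levels of 7.28% and 6.52% in swim-up sperm against 6.97% and 6.94% in HRCS. The rest, with 17 measured sites, had 97.9% and 90.7% in swim-up sperm against 95.1% and 91.2% in HRCS. All 17 lay between 10775094 and 10782977, on the Socs1 side, so the comparison with the rest covers that flank alone.

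Prm1 was the only member with measured sites, and it was methylated throughout. Of its 23 CG sites 21 were measured, between 41 and 406 bases after the start of the transcript, with 4 to 38 reads per site and library. Mean levels over these sites were 90.4% and 97.5% for swim-up sperm against 95.2% and 96.8% for HRCS. The lowest value came from swim-up replicate 1 and the highest from swim-up replicate 2, so the fractions overlapped. The averages were 94.0% ± 5.00 for swim-up sperm and 96.0% ± 1.11 for HRCS (SD, n = 2 each), a difference of 2.03 points (two-sided exact permutation test, p = 1, where 0.333 is the smallest p possible). Without swim-up replicate 1 the difference turned to -1.61 points (23 sites), and without swim-up replicate 2 it was 5.57 points, so its direction rested on 1 library. Over both fractions 1505 of 1583 calls in Prm1 were methylated, or 95.1% (95% Wilson interval 93.9% to 96.0%).

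Site by site, Prm1 varied little. The mean level over the 4 libraries was at least 90% at 20 of the 21 sites and 87.9% at the other one (10796772). The 16 coding sites, 12 in exon 1 and 4 in exon 2, had means of 88.9% and 97.3% in swim-up sperm against 95.8% and 96.2% in HRCS. In exon 1 these sites lie 3 to 24 bases apart and in exon 2 every 3 bases, in successive arginine codons, so that 1 read covers many of them and they are not independent. The 5′ UTR, with 2 sites, had 97.2% and 95.3% in swim-up sperm against 97.2% and 97.0% in HRCS. In the intron the single site (10796676) was at 81.8% in swim-up replicate 1 and at 100% in the other libraries. In the 3′ UTR 2 of 4 sites were measured, and all libraries were at 100% there but HRCS replicate 1, which was at 85.7%.

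**Figure D2:**
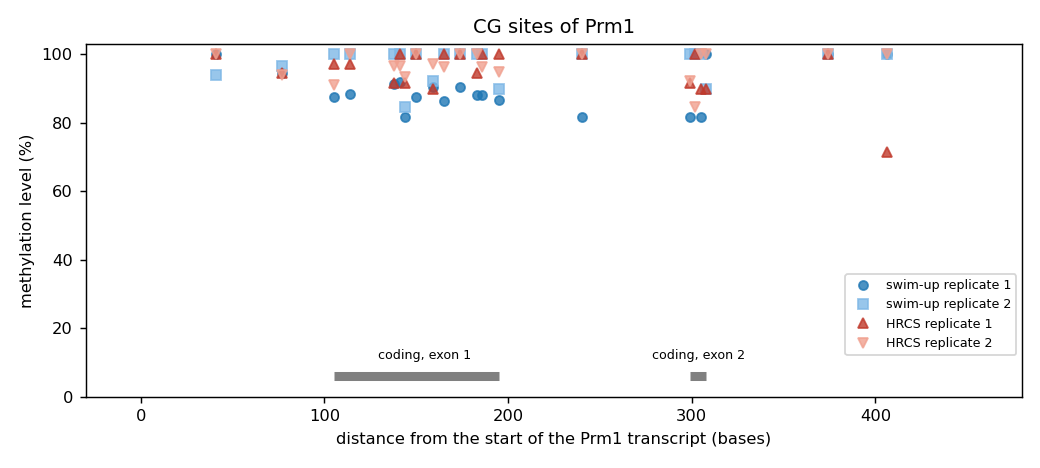
Methylation level (%) of the 21 measured CG sites of Prm1 against the distance from the start of the transcript in bases, 1 symbol per library, with grey bars from the first to the last coding CG site of each exon. Almost all points lie above 80%, the lowest is 71.4% in HRCS replicate 1, and the points of swim-up replicate 1 tend to lie lowest over exon 1.

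Reads at single sites were few. At the least methylated site, 10796772 in the coding part of exon 1, 18 of 22 and 11 of 13 reads were methylated in swim-up sperm against 22 of 24 and 28 of 30 in HRCS. At 10796721, at the end of the coding sites of exon 1, the reads were 13 of 15 and 9 of 10 in swim-up sperm against 18 of 18 and 18 of 19 in HRCS. At both sites the HRCS libraries lay above the swim-up libraries, by 9.28 and 9.04 points on average. These were the 2 of the 21 measured sites of Prm1 whose fractions did not overlap. That is 9.52%, against 15% of all measured sites of the genome.

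The coding sequences of Prm1 and Socs1, both dense in CG, stood at opposite ends of the scale. The 79 coding sites of Socs1 had means of 2.30% and 1.17% in swim-up sperm against 1.92% and 1.95% in HRCS, against 88.9% to 97.3% over the libraries in Prm1. Of 10068 calls in the Socs1 coding sequence 163 were methylated, and of 1203 in that of Prm1 it was 1138. This pair was picked after the values had been seen and is given as a description.

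Among windows with measured sites, a high CG density went with low methylation in these libraries. Whether the choice of capture probes shaped these shares was not tested. The window of 200 bp that starts at 10796601 in Prm1 holds 15 listed CG sites, all of them measured, and had levels of 88.6% and 97.1% in swim-up sperm against 96.0% and 96.5% in HRCS. Of 41160 windows of the genome with at least 15 listed CG sites and at least 3 measured ones, 370 had a mean level of 75% or more (0.899%), and 98.5% had 25% or less. In windows of 1 kb the contrast was less marked. The one from 10796001 holds 27 listed CG sites. Of 34413 windows with at least as many and 3 measured ones, 3446 were at 75% or more and 85.8% at 25% or less. No such window of 1 kb with at least as many CG sites as those over Socs1, 86 and 89, was at 75% or more.

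**Figure D3:**
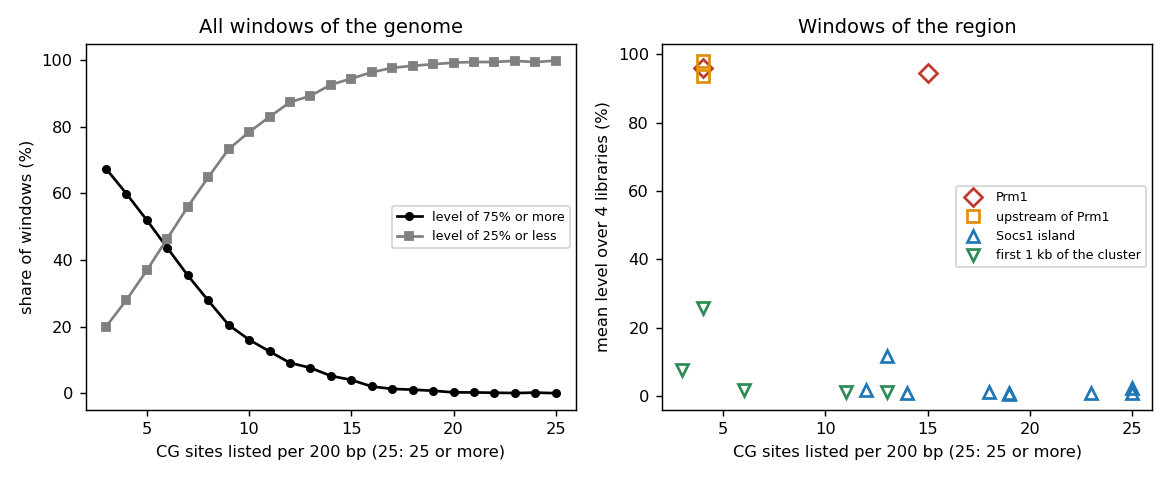
Windows of 200 bp by the number of CG sites listed in them, with 25 standing for 25 or more. The left panel gives the share of genome windows with at least 3 measured sites that were at 75% or more and at 25% or less. The right panel gives the mean level over 4 libraries of each such window from Socs1 to the end of the cluster. The Prm1 window with 15 CG sites lies at 94.5%, where 3.99% of the left panel's windows with exactly 15 reach 75% or more.

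Prm2, Prm3 and Tnp2 were sampled so thinly that no site reached 3 reads in every library, and nearly all calls there were methylated. In Prm3 112 of 120 calls were methylated (93.3%, Wilson interval 87.4% to 96.6%): 27 of 30 and 35 of 38 for swim-up sperm against 28 of 30 and 22 of 22 for HRCS. In Tnp2 it was 36 of 37 calls, namely 18 of 18 and 4 of 4 in swim-up sperm against 1 of 2 and 13 of 13 in HRCS. Prm2 also had 36 of 37, namely 20 of 21 and 1 of 1 in swim-up sperm against 9 of 9 and 6 of 6 in HRCS. For both genes the interval ran from 86.2% to 99.5%. The intervals cover counting error only, and since 1 read gives several calls and PCR copies were not told apart, they can be too narrow even for that.

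Over the 3 genes together 184 of 194 calls were methylated, or 94.8% (Wilson interval 90.8% to 97.2%), close to the share in Prm1. By library it was 65 of 69 and 40 of 43 in swim-up sperm against 38 of 41 and 41 of 41 in HRCS. The coding parts had 97 of 105 in Prm3, 31 of 32 in Tnp2 and 20 of 21 in Prm2. The 250 bases upstream, shown above, gave 14 methylated calls of 15 in Prm3 and 1 of 1 in each of Tnp2 and Prm2. Prm3 held 8 of the 10 unmethylated calls. Several of the 8 lay at its coding site 10790826, methylated in 0 of 2 and 3 of 5 reads in swim-up sperm. HRCS replicate 1 had 1 of 3 there, and HRCS replicate 2 had no read. At this depth the fractions were not tested against each other in any of the 3 genes.

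**Figure D4:**
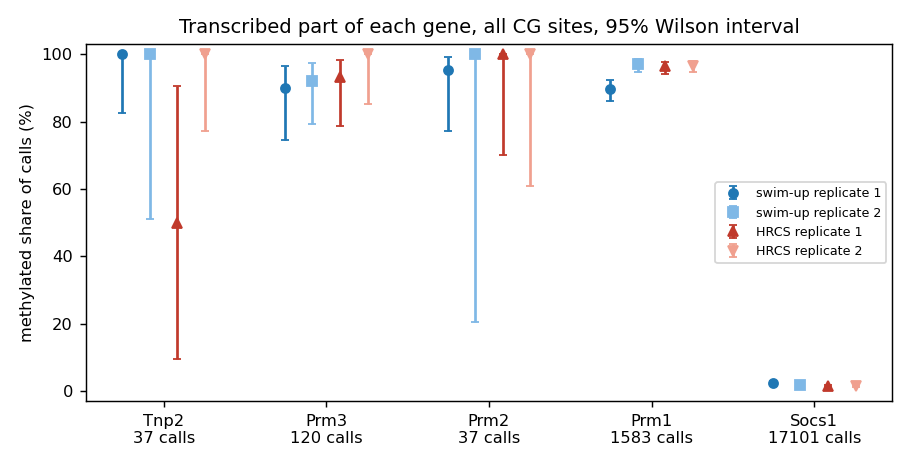
Methylated share of all calls (%) in the transcribed part of each gene, from low to high position with Socs1 last, 1 symbol per library and bars for the 95% Wilson interval. The 4 members lie high and Socs1 near 0, and the bars of Tnp2 and Prm2 are long because each rests on 37 calls.

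Calls were spread unevenly along the cluster. Only 3 of the 17 bins of 1 kb in the cluster held a measured site: the first 1 kb, the bin of Prm1 and the bin from 10801001. After the last site of the first 1 kb, the next measured site came 9610 bases further on, in Prm1. The 104 CG sites listed in that stretch (10787234 to 10796487) had 342 calls in all, of which 325 were methylated (Wilson interval of the share 92.2% to 96.9%), against 4441 calls at the 37 sites of the first 1 kb. Of the 206 listed sites of the cluster 31 had no read in any library. The 140 sites of the cluster that missed the minimum together had 439 methylated calls of 463 (94.8%). Where the capture probes lie was not analysed here.

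**Figure D5:**
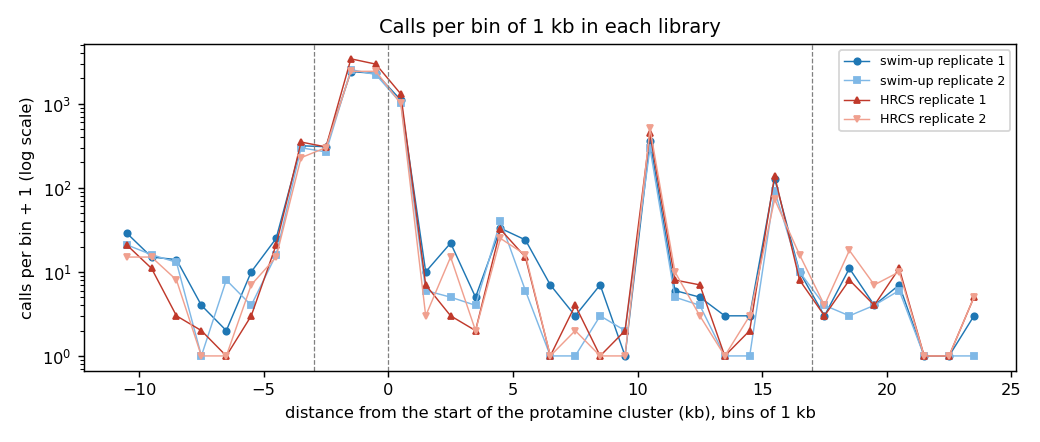
Calls per bin of 1 kb, plus 1, on a log scale, against the distance from the start of the cluster in kb, 1 line per library. Each library peaks over Socs1 and the first 1 kb, at Prm1 and about 15 kb into the cluster, and no library has more than 39 calls in any bin between these.

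The third measured stretch lies upstream of Prm1, with its nearest site 4324 bases before the start of the gene, and it too was methylated. Its 8 sites had means of 98.9% and 90.2% in swim-up sperm against 98.7% and 95.3% in HRCS. At 10801319 swim-up replicate 2 had 3 of 6 reads methylated, whereas the other libraries had 9 of 9, 11 of 11 and 9 of 9. The pseudogene Gm10343, placed here by its 3 CG sites, had 165 methylated calls of 167, and its site at 10801480 was methylated in all reads of all libraries, 24 and 14 in swim-up sperm against 22 and 14 in HRCS.

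At the other end, the low methylation of Socs1 ran on past the position where the cluster was taken to begin. The 30 sites from 10786050 to 10786588 had means of 0.968% and 0.673% in swim-up sperm against 1.66% and 1.73% in HRCS. The HRCS libraries lay above the swim-up libraries there, with 18 methylated calls of 1080 and 14 of 842 against 10 of 964 and 5 of 828, and the exact permutation test gave p = 0.333, the smallest possible. In the Socs1 intron the order was reversed, with 1.44% and 0.700% in swim-up sperm against 0.280% and 0.660% in HRCS. Of the 200 bp windows of the genome at 25% or less, which are shorter than this stretch, 30.9% had fractions without overlap. At 11 of these sites, each with 12 to 47 reads per library, no read was methylated in any library. The first 5 of the 11 by position were 10786118, 10786136, 10786151, 10786206 and 10786238. The next 7 sites, from 10786616 to 10786900, were higher, 5 of them at 25% or less and 2 above, with means of 21.8% and 13.7% in swim-up sperm against 17.3% and 19.5% in HRCS. The last of them, at 10786900, had the highest mean of the 7, 38.7%, and the next listed CG site came 334 bases further on without enough reads.

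On its far side the unmethylated stretch ended inside the island as defined. In the bin from 10783001 the 11 sites had means of 84.0% and 77.4% in swim-up sperm against 85.0% and 83.7% in HRCS, although the island was taken to begin there. The 8 measured sites of the Socs1 3′ UTR, the part of the gene next to that bin, had 18.8% and 20.8% in swim-up sperm against 17.9% and 12.0% in HRCS. Both ends of the unmethylated stretch thus lay at higher positions than the edges given for the island. The bins from 10784001 and 10785001 were at 2.84% to 3.78% and at 0.684% to 1.32% over the libraries.

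Differences between HRCS and swim-up sperm in the cluster were small and passed no test. The mean over its 66 sites came to 43.6% ± 0.140 in swim-up sperm against 45.0% ± 0.246 in HRCS (SD, n = 2 each), 1.41 points higher, with both HRCS libraries above both swim-up libraries (p = 0.333 in a two-sided exact permutation test, which cannot go lower). Beyond the first 1 kb it came to 94.1% ± 1.92 in swim-up sperm against 96.3% ± 0.141 in HRCS (SD, n = 2 each), 2.15 points higher in the same order of libraries (exact p = 0.333). Without swim-up replicate 1 this difference was 0.549 points, and without swim-up replicate 2 it was 3.51. The swim-up libraries lay further apart within the stretches than over the 66 sites. Their SD was 1.25 points in the first 1 kb, 5.00 in Prm1 and 6.18 at the 8 sites upstream of it. Replicate 1 was the higher in the first 1 kb and upstream, and replicate 2 in Prm1. The small SD over the 66 sites thus averages opposite gaps. With calls pooled over the 66 sites in place of site means, the difference came to 5.54 points, since each site then counts by its number of reads. The island differed by 0.0527 points and the rest by -1.10 points (exact p = 1 for both). The value of the rest was -3.60 points at 10 reads, -3.13 at 1 read, -2.03 with pooled calls and -2.32 on the minus strand, with the 2 fractions apart in all of these but that at 1 read (exact p = 0.333, the smallest possible).

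By single sites, 9 of the 66 had fractions that did not overlap (13.6%), 6 with both HRCS libraries above both swim-up libraries and 3 with both below. Over all measured sites of the genome this share was 15%, with 7.52% above and 7.46% below, so the count in the cluster was near the background. With at least 10 reads in each library it was 9 of 54 (16.7%), against 17.1% over the genome, with 8.79% above and 8.35% below. In Prm1 it was 2 of 21, both above. The largest such difference in the cluster was at 10786851, among the intermediate sites of the edge, with 5 of 15 and 4 of 23 reads methylated in swim-up sperm against 6 of 17 and 8 of 15 in HRCS. The sites of the same edge at 10786711 and 10786656, also without overlap, went the other way, by -9.83 and -7.94 points. At 10786849, only 2 bases from 10786851, the fractions overlapped, with 9 of 17 reads methylated in HRCS replicate 1 and 1 of 15 in HRCS replicate 2.

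In windows of 1 kb tested over the genome, the quasi-likelihood test of edgeR, run on counts of methylated and unmethylated calls, called 0 of the 7 windows of the region at an adjusted p under 0.05 (Benjamini-Hochberg). It called 6 of 205220 windows in the genome (0.00292%). At an unadjusted p under 0.05 it was 2 of 7, both on the far side of Socs1, and 5.32% of the genome. Fisher's exact test on pooled calls also called 0 of 7, against 1.43% of the windows of the genome. At an unadjusted p under 0.05 it was 4 of 7, against 11.9% of the genome in the same test. Of these only the Prm1 window lies in the cluster. The windows from 10782001, 10783001 and 10784001 lie at lower positions. Fisher's exact test takes each call as independent and ignores the spread between the libraries of a fraction. The Prm1 window had a difference of 2.03 points (edgeR, adjusted p = 0.939), the window upstream of it 2.47 points (adjusted p = 0.968) and the first window of the cluster 0.829 points (adjusted p = 1). All 3 rested on single swim-up libraries. Without replicate 1 they were -1.50, 6.84 and 1.72 points, and without replicate 2 they were 5.57, -1.90 and -0.0572.

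Other genes were listed as genes of the spermatid, but the stage at which each is expressed was not examined here. Those that could be placed in the same way and measured had low levels at their promoters, as most measured CG-rich windows of the genome did. Of the 32 listed genes 24 had an entry in the promoter table, with 33 windows of 300 bases around the start. Of these, 19 windows of 14 genes could be placed and held measured sites. All 19 were at or under 25%, from 0.445% to 3.09%. They held 5 to 43 CG each. Of the 200 bp windows with at least 3 measured sites, 55.5% of those with at least 4 listed CG sites were at 25% or less. Of those with at least 15 it was 98.5%, so nothing particular to these genes is read from the count. Among them were those of the histone variants H1f6, H2bc1 and H3f4, of Brdt, which binds acetylated histones, of the chromatin remodeller Chd5, of the kinase Tssk6, of Ldhc, a lactate dehydrogenase of sperm, and of Izumo1, which serves in sperm-egg fusion. H2bc1, a testis histone, had 1.09% and 2.78% in swim-up sperm against 0.711% and 0.280% in HRCS. Brdt had 0.437% and 0.334% in swim-up sperm against 0.995% and 1.58% in HRCS. Over the 19 windows HRCS minus swim-up ranged from -1.44 to 1.77 points, and the smallest exact permutation p was 0.333. The fractions did not overlap in 7 of the 19, 5 with HRCS above and 2 below. Among 200 bp windows at 25% or less with at least 3 measured sites it was 30.9%, but these are shorter than the promoter windows. The 2 windows of Chd5 cover nearly the same sites and both count among the 5, and the 4 of Odf2 overlap in part. The 19 are therefore not separate promoters. H2bc1 and Brdt are among the 7 and were chosen after their values were seen. The placed promoter windows of Prm2, Prm3 and Tnp2 held no site with 3 reads in every library. In them 32 of 33 calls in Prm3, 3 of 3 in Tnp2 and 1 of 1 in Prm2 were methylated. These windows reach into the gene, so part of the Prm3 and Tnp2 calls were already counted in the transcribed parts. The 250 bases upstream alone gave 14 of 15 in Prm3 and 1 of 1 in each of Tnp2 and Prm2. By the placed gene, the Prm1 window holds 1 CG, at 10796875, 41 bases after the start. That site was measured, at 93.9% to 100% over the libraries. The comparison is uneven, since a window of another gene needed at least 4 CG to be placed and one of a member 3, and 10 windows with fewer CG, those of Smcp, Akap4 and Klhl10 included, could not enter it. Tnp1, the other transition protein gene, lies on another chromosome and had 0 methylated calls of 3, all from 1 library.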

How the data were processed

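DNA methylation was measured by TGBS in 2 libraries of swim-up sperm and 2 of HRCS. Per the labels, 300 ng of DNA was sheared to about 500 bp, captured with SureSelectXT Mouse Methyl-Seq, tagged after bisulfite treatment, amplified in 5 cycles and read once over 100 cycles. Bmap placed the reads on mm9, and the authors deposited raw counts of methylated and of total reads per CG cytosine and strand. The columns have no names. The smaller was taken as methylated reads, and a duplicate filter or conversion rate is not given in the sources used here.

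Strands were merged, only sites with 3 or more reads in all 4 libraries were kept, and site levels were averaged without weights. Groups followed the labels. Fractions were compared by exact permutation tests over libraries, and windows of 1 kb with at least 3 such sites by edgeR 4.0.16 (R 4.3.3), with a term for each library and Benjamini-Hochberg adjustment over all windows. Intervals are Wilson intervals at 95%. Genes of GRCm38.p6 were placed by exact CG spacing, and no position was converted between builds. Other steps used Python 3.11.15 (pandas 2.3.3, numpy 2.4.6, matplotlib 3.10.9, scipy 1.17.1).

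The members, edges, gene list and tests were chosen with earlier results of these data known. Single sites were named by level or difference: the 5 lowest (the first by position of those tied at 0) and 5 highest at 10 reads, the 5 largest differences without overlap and the 3 highest of the island, and others named were chosen after their values were seen. Alternatives were minimums of 1 and 10 reads, pooled calls, the minus strand alone, edges moved by 1000 bp, windows of 200 bp, at least 1 site per window, Fisher's exact test on pooled calls, a replicate block and each library left out.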

Additional observations from a re-analysis of the deposited data

How the results depend on the processing

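Of 76 alternative values 70 kept the direction and the side of the threshold of the reported one, and 6 changed direction. The exact permutation tests could not reach 0.05, so for them an unchanged side of the threshold says nothing about stability. The difference between HRCS and swim-up sperm in the island was -0.447 points with pooled calls, and that of the rest was 2.51 points without swim-up replicate 1 and 0.838 without HRCS replicate 2. The cluster against the rest came to 1.47 points with the edges moved inward, since the sites of the first 1 kb then drop out. Prm1, whose settings, like those of the cluster beyond the first 1 kb, were added after the data were seen, had -1.61 points without swim-up replicate 1. For the others the cause was not tested.

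With 1 library left out at a time, HRCS minus swim-up ran from 1.17 to 1.59 points in the cluster, from -0.238 (without swim-up replicate 2) to 0.435 in the island, from -4.72 to 2.51 in the rest and from -1.61 to 5.57 in Prm1. The range of the cluster is narrow, but its measured windows of 1 kb each changed sign without 1 of the swim-up libraries. The cluster minus the island ran from 37.2 to 40.1 and the cluster minus the rest from -50.2 to -45.4. The windows called in the region were 0 throughout, and the promoters at 25% or less were 19 to 20. At 10 reads 17 of 17 promoters were, and at 1 read 19 of 20, the exception being that of Prm3, a member of the cluster. Its value there rests on 10790972 and 10790983, which lie inside the gene and had 1 to 4 reads per library.

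The labels give no pairing of libraries by replicate number. Same-numbered libraries did not deviate together (r = -0.00479 over 205220 windows), which does not show whether they were handled together. The study put 2 indexed libraries on each lane, and which ones shared a lane is not stated. With a replicate block the cluster differed by 1.41 points (exact p = 0.5, the smallest possible), the island by 0.0527, the rest by -1.10 and Prm1 by 2.03, and 0 windows of the region were called. The genome then had 12 calls in place of 6, and 2936 with Fisher's exact test. The depth of Prm2, Prm3 and Tnp2 limits every statement on them.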

Other observations

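The site-to-site spread between replicates was wider than read sampling alone would give. The mean chi-square of the difference at single CG sites, which is 1 for sampling alone, was 1.67 between the swim-up libraries (132133 sites) and 1.36 between the HRCS libraries (153341 sites). Swim-up replicate 1 was the lowest library over Prm1 (90.4%) and the highest over the 8 sites upstream of it (98.9%), whereas swim-up replicate 2 was the highest over Prm1 (97.5%) and the lowest upstream (90.2%). Within the fraction the order of the libraries thus turned between stretches of the same cluster.

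Among the promoters of the other genes listed for the spermatid, H1f7, a linker histone gene, had no site with 3 reads in every library. It had 59 calls, of which 2 were methylated. Pgk2, a phosphoglycerate kinase gene of sperm, had 0 calls.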
